A study of Mus musculus with 24 samples.

Results

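The miR-378 family comprised 5 mature miRNAs of the deposited mouse table, mmu-miR-378a-3p, mmu-miR-378a-5p, mmu-miR-378b, mmu-miR-378c and mmu-miR-378d, out of 1966 mature miRNAs in all. Members were taken by their names in the table, and none was left out for its values. Of these 5, 3 had at least 1 read (miR-378a-3p, miR-378a-5p and miR-378c), while miR-378b and miR-378d had no read in any library. Small RNA from serum extracellular vesicles (EVs), the membrane particles that cells release into blood, was sequenced in 24 libraries of 1 mouse each. The mice were wild type male C57BL/6 animals 14 to 16 weeks old. In the 3 surgery groups an open tibia fracture was stabilized with a pin under isoflurane and buprenorphine, and serum was taken at 6 h (S6h), 24 h (S24h) or 72 h (S72h), with 6 mice in each group. The S24h and S72h mice also had analgesia every day, and the 6 Control mice were injected with saline, so that surgery, anesthesia and analgesia cannot be told apart. The Control mice were those assigned to the 6 h time point. The controls assigned to the later time points were not analysed here. In every comparison of S24h or S72h with Control or S6h, the time after surgery and the set of animals therefore cannot be told apart. The paper states, without values, that its sets of controls did not differ statistically. EVs were precipitated from serum with a polymer reagent and then passed over a column, and the cells that released them are not known, so a larger number of EVs of one source and more miRNA per EV cannot be told apart.

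miRNAs are short RNAs that are cut as a duplex from a hairpin precursor, and the strands from the hairpin's left and right side are called the 5p and 3p arms. Usually 1 arm is loaded into the silencing complex and persists, while the other is degraded. A miRNA finds its target mRNAs mainly through its seed, bases 2 to 8. miR-378a lies in an intron of Ppargc1b, the gene of the transcriptional coactivator PGC-1β, and is known from heart and skeletal muscle, liver and brown fat, where it takes part in the control of mitochondrial metabolism and muscle cell differentiation.

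The mature sequences of 3 members were matched in RefSeq (GRCm38.p6), and they are shown because near-identical sequences limit how reads can be divided. Those of miR-378a-3p and miR-378a-5p were not matched there, so their likeness to these 3 is not shown. They are given 5′ to 3′ with the seed in capitals.
miR-378b: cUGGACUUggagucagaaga
miR-378c: aCUGGACUuggagucagaagc
miR-378d: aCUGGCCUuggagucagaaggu
miR-378b lies at chr11:88352839-88352858 on the plus strand, miR-378c at chr14:46954905-46954925 on the minus strand and miR-378d at chr10:126710355-126710376 on the minus strand. With positions counted from 1 at the 5′ end of the miRNA named first, miR-378c and miR-378d differed by A6C, which is inside the seed, and by C21G. miR-378b begins 1 base later than miR-378c, and over its 20 bases the only difference from miR-378c was A20C. From miR-378d it differed by A5C and A20G. The start that is 1 base later gives miR-378b another seed than miR-378c, so these 3 members had 3 different seeds.

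In the Gencode annotation of GRCm38, the Mir378c hairpin lies within an intron of Samd4 and the Mir378b hairpin within an intron of Msi2, each on the strand opposite to the host gene. No annotated gene overlaps the Mir378d hairpin.

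The Mir378a hairpin is annotated at chr18:61397835-61397900 on the minus strand, within an intron of Ppargc1b and on the same strand as this gene. Another annotated miRNA gene, Gm25301, overlaps it on the plus strand. How the counting treated reads that align to several places, and whether it used strand, is not given in the sources used here. The division of reads among the family members, and between Mir378a and Gm25301, is therefore uncertain.

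Total counts per library ranged from 63956 to 471801. Values are in CPM, the reads of a miRNA as a share of all miRNA reads of that library, on the usual scale of counts per 1000000. A count of 0 is compatible with up to 3 reads, which is 6.36 CPM in the deepest and 46.9 CPM in the shallowest library, and all such limits and intervals of shares cover counting error only. The S24h libraries were the shallowest by median, with a total of 75030, against 117579 in Control, 177468 in S6h and 94428 in S72h. miR-378b and miR-378d had 0 of 3359369 reads over all 24 libraries, which allows up to 0.893 CPM. miR-378a-3p carried 18438 of the 19751 reads of the family (93.4%), miR-378c 1154 reads (5.84%) and miR-378a-5p 159 reads (0.805%). miR-378a-3p and miR-378c reached 10 CPM in all 24 libraries and were among the 252 miRNAs tested with edgeR, which had at least 10 CPM in at least 12 libraries. miR-378a-5p had reads in 11 libraries, 1 below this filter, and was therefore tested by exact permutation.

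miR-378a-3p, the main product of its hairpin, was present in the EVs of every mouse and had its highest mean level at 24 h. Its level ranged from 730 to 5836 CPM in Control (median 3026) and from 1341 to 7897 CPM in S6h (median 2951). In S24h it ranged from 3591 to 24709 CPM (median 6768), and in S72h from 2090 to 14636 CPM (median 4799). All 6 S24h libraries lay above the Control median, 3 of them above the highest Control library, and the groups overlapped. The means were 3336 ± 1843 in Control, 3595 ± 2292 in S6h, 9228 ± 7834 in S24h and 6435 ± 4693 CPM in S72h (SD, n = 6 each). The rank of miR-378a-3p by mean CPM among the 1966 miRNAs was 53 in Control, 49 in S6h, 27 in S24h and 32 in S72h. A single library stood far above its group in S24h, replicate 3 with 24709 CPM, and the highest S72h library was replicate 1 with 14636 CPM, next to 8921 CPM. Without them the means were 6131 ± 2195 CPM in S24h and 4794 ± 2711 CPM in S72h (SD, n = 5 each).

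miR-378c, which comes from another hairpin, followed the same order of means at a much lower level. In Control it had 22.3 to 361 CPM (median 148) and in S6h 19.5 to 364 CPM (median 209). In S24h it had 190 to 1839 CPM (median 483) and in S72h 89.7 to 698 CPM (median 336). Again all 6 S24h libraries lay above the Control median, and 4 of them lay above the highest Control library. The means were 160 ± 131 in Control, 200 ± 148 in S6h, 681 ± 599 in S24h and 379 ± 260 CPM in S72h (SD, n = 6 each), and without the same single libraries 449 ± 215 CPM in S24h and 315 ± 233 CPM in S72h (n = 5 each). The low end of these levels rests on few reads, since 2 Control libraries had 3 reads each and 1 S6h library had 2. Both miRNAs together with miR-378a-5p made up 0.356% ± 0.201 of the reads in Control, 0.388% ± 0.246 in S6h, 0.991% ± 0.839 in S24h and 0.683% ± 0.497 in S72h (SD, n = 6 each).

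**Figure D1:**
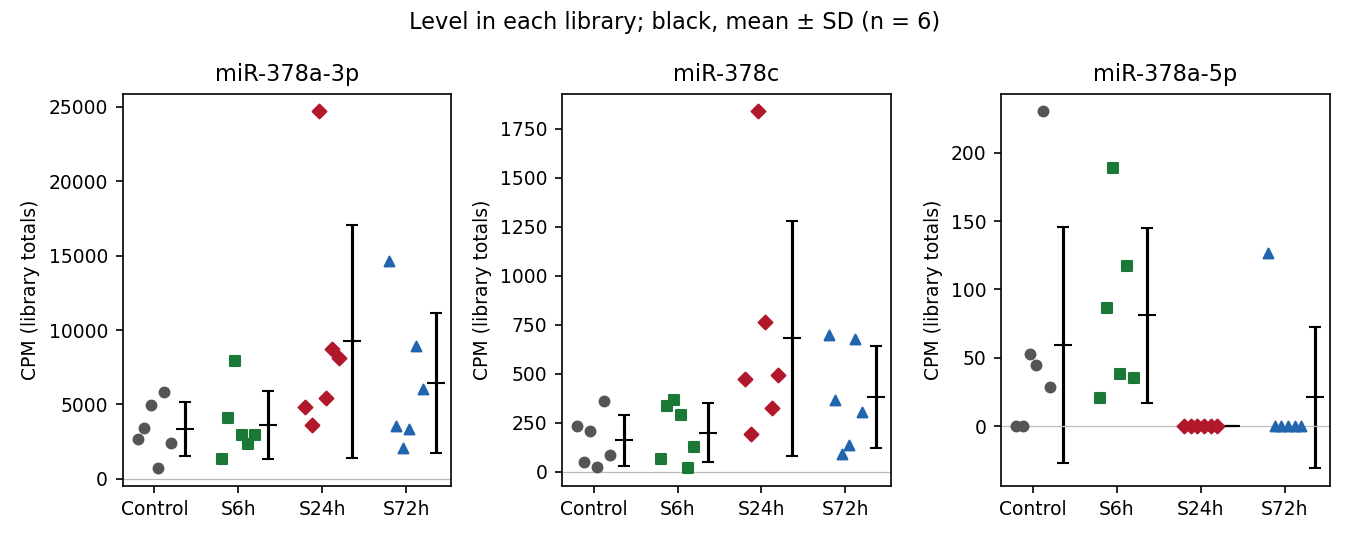
Level of miR-378a-3p, miR-378c and miR-378a-5p in CPM (y axes, from library totals, a scale for each panel) in the 6 libraries of each group (x axis, coloured points), with the mean and SD in black. Replicate 3 of S24h is the highest point for miR-378a-3p (24709 CPM) and for miR-378c (1839 CPM), and all 6 S24h points for miR-378a-5p lie at 0.

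Whether surgery changed these levels was asked by comparing each time point with Control and S24h with its neighbours in time, in 1 edgeR model over all libraries, in which a call needs an adjusted p under 0.05 together with a 1.5-fold difference. Neither miR-378a-3p nor miR-378c was called in any of the 5 comparisons. In S24h against Control miR-378a-3p was 2.51-fold higher, with a log2 fold change of 1.33 (SE 0.49, 95% interval 0.33 to 2.33, edgeR adjusted p = 0.0624). miR-378c was 3.77-fold higher, with a log2 fold change of 1.92 (SE 0.70, 95% interval 0.49 to 3.34, edgeR adjusted p = 0.0624). These values lie just outside the threshold, in a comparison in which 11.9% of the tested miRNAs were called.

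The call at 24 h depended on the method. With DESeq2, the tool of the study, both passed, miR-378a-3p at 1.58 and miR-378c at 2.15 on the log2 scale (adjusted p = 0.0127 for both), where DESeq2 called 19.8% of the tested miRNAs. Of the 10 alternative settings, 7 called miR-378a-3p and 5 called miR-378c, all as higher. The difference also depended on replicate 3 of S24h. Without it the edgeR log2 fold change fell to 0.84 for miR-378a-3p (adjusted p = 0.233) and to 1.41 for miR-378c (adjusted p = 0.185). When each of the 24 libraries was left out in turn, miR-378a-3p was called in 19 fits and miR-378c in 18, all in the higher direction. These include every fit without an S6h or S72h library, which are not in this comparison. Without S72h replicate 1, for example, miR-378a-3p stood at 1.60. The call of miR-378a-3p was absent without Control replicate 4, 5 or 6 or S24h replicate 3 or 5. That of miR-378c was absent without Control replicate 2, 4, 5 or 6 or S24h replicate 3 or 4.

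At 6 h the values of both miRNAs were near those of Control. The log2 fold change was 0.19 (95% interval -0.80 to 1.17) for miR-378a-3p and 0.39 (-0.998 to 1.78) for miR-378c, and the edgeR adjusted p was 0.991 for both. The intervals still hold differences of more than 1.5-fold in either direction. In this comparison edgeR called 0 of the 252 miRNAs (0%), with 9 at an unadjusted p under 0.05, and DESeq2 also called 0.

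At 72 h both stood above Control, by 1.12 (SE 0.49, edgeR adjusted p = 0.194) for miR-378a-3p and 1.31 (SE 0.69, edgeR adjusted p = 0.295) for miR-378c on the log2 scale, where 3.57% of the tested miRNAs were called. Neither was called by DESeq2, with adjusted p of 0.0892 and 0.142. Without replicate 1 of S72h the log2 fold changes were 0.74 and 1.12 (edgeR adjusted p = 0.426 for both). The comparisons with Control share the same 6 Control libraries.

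Between time points, S24h was above S6h by 1.14 (SE 0.49, edgeR adjusted p = 0.104) for miR-378a-3p and by 1.52 (SE 0.69, edgeR adjusted p = 0.126) for miR-378c on the log2 scale, in a comparison with 20.2% of the miRNAs called. DESeq2 called both, at 1.43 (adjusted p = 0.0187) and 1.81 (adjusted p = 0.0280), beside 22.6% of the tested miRNAs. Without replicate 3 of S24h the edgeR values were 0.62 and 0.97 (adjusted p = 0.421 and 0.387). From S24h to S72h the log2 fold change was -0.21 (95% interval -1.19 to 0.78, edgeR adjusted p = 0.986) for miR-378a-3p and -0.60 (-1.98 to 0.78, edgeR adjusted p = 0.886) for miR-378c, with 0.397% of the miRNAs called. In the order of mean levels, S24h, S72h, S6h and Control, neither S24h and S72h nor S6h and Control differed beyond their spread for these miRNAs, and S72h was not tested against S6h.

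**Figure D2:**
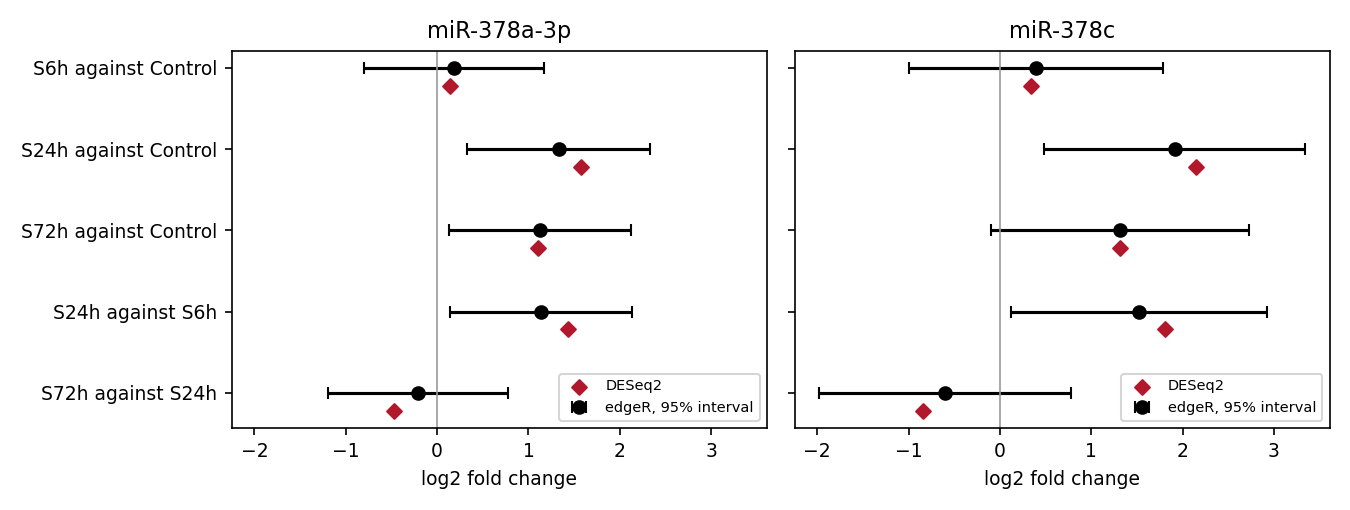
Log2 fold change (x axis) of miR-378a-3p and miR-378c in the 5 comparisons (y axis), with the edgeR estimate and its 95% interval in black and the DESeq2 estimate in red. In S24h against Control both edgeR intervals lie above 0, from 0.33 to 2.33 and from 0.49 to 3.34, although the adjusted p of both was 0.0624.

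The levels of miR-378a-3p and miR-378c varied together from mouse to mouse. On log2 CPM over the 24 libraries Pearson's r was 0.858 (Spearman's rho 0.815), and after the group means were removed r was 0.808. Each was the nearest of all tested miRNAs to the other. These are descriptions over libraries in which both values share the scaling and depth of the library, and the 2 miRNAs may share reads. Outside the family the 5 miRNAs most like miR-378a-3p were miR-185-5p (r = 0.787), miR-140-3p (0.722), miR-221-3p (0.719), miR-320-3p (0.71) and miR-5113 (0.695). Those most like miR-378c were miR-185-5p (r = 0.784), miR-320-3p (0.727), miR-483-5p (0.720), miR-423-3p (0.705) and miR-140-3p (0.698), so that miR-185-5p, miR-140-3p and miR-320-3p stood in both sets. Between mice of a group the variation of miR-378a-3p was below the median of the 252 tested miRNAs, and that of miR-378c was near it. The biological coefficient of variation was 59.5% for miR-378a-3p and 80.0% for miR-378c, against a median of 85.9%. Counted from the highest, they ranked 161 and 135.

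The proportion of the pair did not differ between groups beyond the spread between mice. miR-378c made up a median of 3.73% of the reads of both in Control, 4.42% in S6h, 6.33% in S24h and 4.70% in S72h, and single libraries ranged from 0.830% to 12.3%. The log2 ratio of miR-378c to miR-378a-3p, with 0.5 added to each count, was higher in S24h than in Control by 0.79 (exact two-sided permutation p = 0.102, adjusted over 5 comparisons 0.451). None of the 5 comparisons of this ratio passed, with adjusted p from 0.451 to 0.83 in the exact permutation test.

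**Figure D3:**
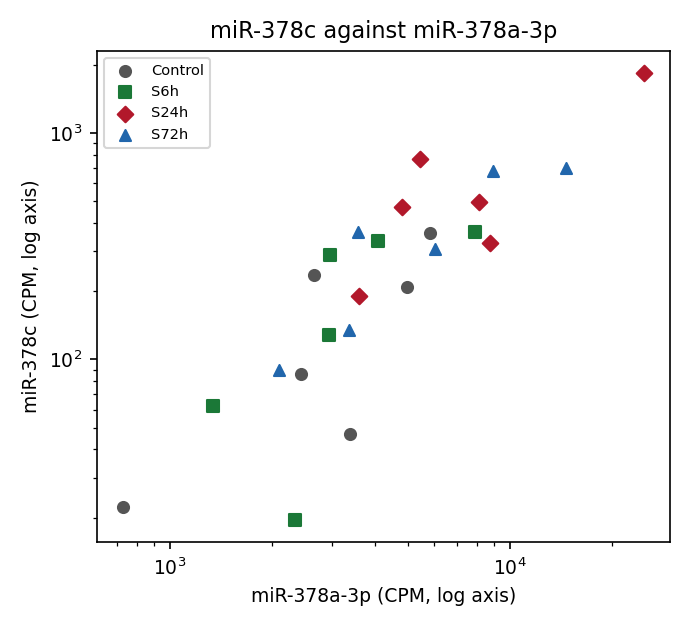
CPM of miR-378c (y axis, log scale) against CPM of miR-378a-3p (x axis, log scale) in the 24 libraries, coloured by group. The points follow 1 band (Pearson's r = 0.858 on log2 CPM), with replicate 3 of S24h at its upper end.

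miR-378a-5p, the other arm of the miR-378a hairpin, was not detected in any library of S24h, the group with the highest mean of miR-378a-3p. It had reads in 4 of 6 Control, 6 of 6 S6h, 0 of 6 S24h and 1 of 6 S72h libraries. In Control the counts of replicates 1 to 6 were 0, 0, 5, 6, 30 and 3 reads, and in S6h 4, 14, 28, 18, 12 and 8 reads. In S72h only replicate 1 had any, with 31 reads (127 CPM). The Control mean of 59.3 ± 86.6 CPM (SD, n = 6) rests largely on replicate 5 with 230 CPM, whereas the S6h libraries all lay between 20.7 and 189 CPM (81.1 ± 64.1, SD, n = 6).

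Against S6h, miR-378a-5p was at least 11.9-fold lower in S24h, when the pooled S6h level of 64.4 CPM (84 of 1304057 reads) is set against 3 reads over the S24h libraries (5.42 CPM). All 6 S24h libraries lay below all 6 S6h libraries, which was also true of 4.78% of the 335 miRNAs with reads in at least 6 libraries. The difference of the mean log2(CPM + 4) was -4.06 (exact two-sided permutation p = 0.00216, the smallest that 924 splits allow, adjusted over 5 comparisons 0.0108). With S24h at 0 the size of this difference depends on the number added, and it was -5.97 on log2(CPM + 1), with the same p. Such a p under 0.05 with a lower level was seen in 15.2% of these 335 miRNAs. Against Control, miR-378a-5p was at least 10.3-fold lower by the same limit, and at least 3.91-fold lower without replicate 5 of Control, which held 30 of the 44 Control reads. In this comparison 2 Control libraries were also at 0, and the difference of -2.72 did not pass (-3.999 with 1 added, exact two-sided permutation p = 0.0606, adjusted 0.152), with 11.9% of the 335 lower at p under 0.05.

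When edgeR was run without the filter on low counts, over the 667 miRNAs with any read, miR-378a-5p was called lower in S24h against Control (adjusted p = 0.0201), where 5.7% were called, and in S24h against S6h (adjusted p = 0.00900), where 6.75% were called. The exact tests of S6h against Control (p = 0.242), S72h against Control (p = 0.197) and S72h against S24h (p = 1) did not pass. In single S24h libraries a count of 0 allows 20.9 to 45.0 CPM, which is above the level of several S6h and Control libraries, so that the statement rests on the 6 libraries together.

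The arms of the hairpin can be compared within a library, where scaling plays no part. The 5p arm made up 44 of 2548 miR-378a reads in Control (1.73%) and 84 of 4477 in S6h (1.88%). In S24h it made up 0 of 5759, which allows a share of up to 0.0521%, while 101 reads would have stood beside the 3p reads at the Control ratio. Without replicate 3 of S24h it was 0 of 2803 (up to 0.107%), with 49.3 reads at the Control ratio. In S72h it was 31 of 5813 (0.533%), and without replicate 1 of S72h 0 of 2196 (up to 0.137%), with 38.6 reads at that ratio. Without replicate 5 of Control the Control share was 14 of 1758 (0.796%), and the reads at that ratio were 46.2 in S24h, 22.5 without its replicate 3 and 17.6 in S72h without its replicate 1. The S24h libraries thus held more 3p reads than the Control libraries in total and none of the 5p arm.

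The mean log2 ratio of 5p to 3p reads, with 0.5 added to each count, was -6.73 ± 2.48 in Control, -5.59 ± 0.75 in S6h, -10.35 ± 1.31 in S24h and -9.11 ± 1.38 in S72h (SD, n = 6 each). With the 5p count at 0, the size of these ratios depends on the number added and on the 3p reads of the library. The difference of S24h from S6h was -4.77 (exact two-sided permutation p = 0.00216, adjusted 0.0108) with no overlap, which was so with the minor arm lower in 1.19% of the 84 hairpins with reads from both arms, miR-378a alone. With 1 added to each count it was -3.83, with the same p. The difference from Control was -3.62 (exact two-sided permutation p = 0.0173, adjusted 0.0433), and -3.03 with 1 added. When each of the 12 libraries was left out in turn, this difference ranged from -4.36 to -3.06 and its call was lost in 10 of the 12 tests, with adjusted p of up to 0.0758. S72h against Control did not pass, at -2.38 (exact permutation p = 0.0693, adjusted 0.115), nor did S6h against Control, at 1.15 (exact permutation p = 0.333).

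Set beside the 84 hairpins of the table that had reads from both arms, miR-378a had the lowest difference of all in S24h against S6h and in S24h against Control, and the third lowest in S72h against Control. These ranks were the same with 1 added to each count, a setting chosen after seeing the data, at which the next hairpin, miR-145a, was close (-3.49 against -3.83 in S24h against S6h and -2.88 against -3.03 in S24h against Control). The minor arm was lower relative to the major arm at an exact permutation p under 0.05 in 5.95%, 3.57% and 2.38% of the hairpins in these comparisons. In either direction 13, 10 and 11 of the 84 had such a p. Larger differences went the other way, with the minor arm higher. miR-29c, with 33 minor arm reads, stood at 5.38 in S24h against S6h and at 5.02 in S24h against Control, where miR-148a stood at 4.84. Besides miR-378a, 7 of the hairpins had a minor arm with 0 reads in all S24h libraries, with 18 to 287 minor arm reads over the 24 libraries. The one with the most, miR-215, had 287 minor arm reads (3.01% of its reads), against 159 (0.855%) for miR-378a. For miR-378a and these hairpins, the size and rank of the S24h differences depend on the major arm reads and on the number added.

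**Figure D4:**
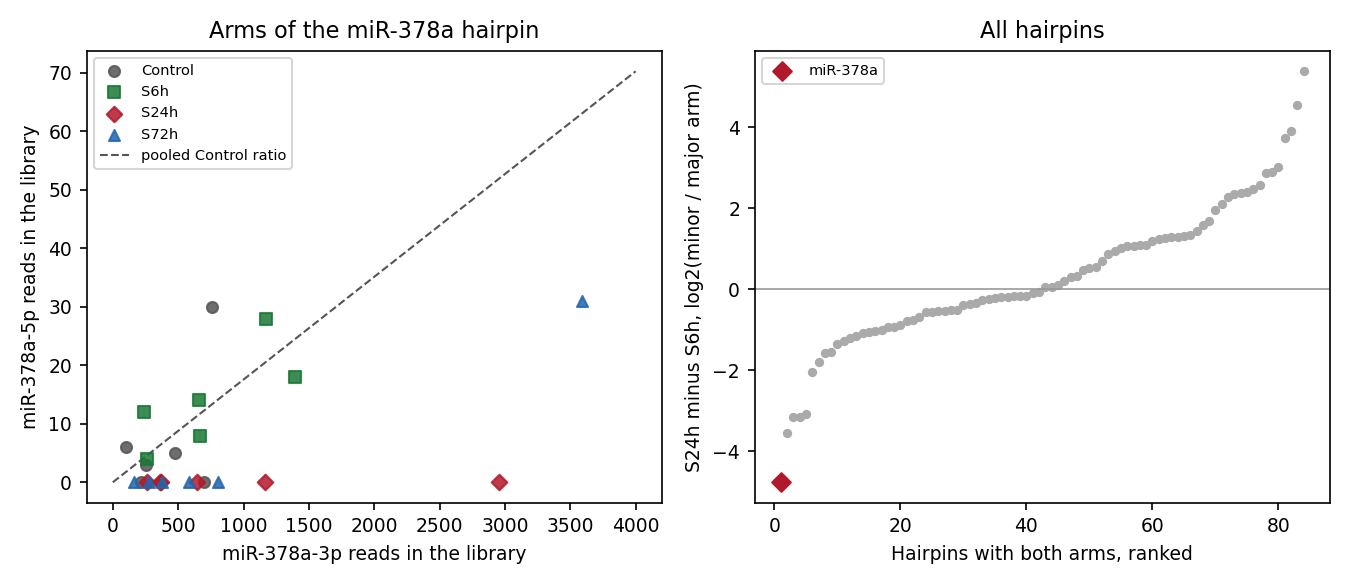
Left, reads of miR-378a-5p (y axis) against reads of miR-378a-3p (x axis) in each library, with the pooled Control ratio as a dashed line. Right, the difference between S24h and S6h in the mean log2 ratio of minor to major arm (y axis) for the 84 hairpins with both arms, ranked from the lowest (x axis). The S24h libraries lie at 0 reads of the 5p arm with up to 2956 reads of the 3p arm. Among the 84 hairpins miR-378a (red) is plotted lowest, at -4.77. With no 5p read in S24h, the size and rank of this value depend on the number added to each count and on the 3p reads. The same holds for the other hairpins whose minor arm had no read in S24h.

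Because miR-378a is known from muscle and the operation separates muscle, the levels were set beside 6 miRNAs known from skeletal and cardiac muscle, miR-1a-3p, miR-133a-3p, miR-133b-3p, miR-206-3p, miR-208b-3p and miR-499-5p. Their summed level was 34151 to 90196 CPM in Control (median 53278), 60182 to 265491 CPM in S6h (median 117926), 15682 to 43550 CPM in S24h (median 33230) and 6442 to 237383 CPM in S72h (median 27754). In S72h the upper end was replicate 1, and the next highest library had 50749 CPM. Of the 6 miRNAs, 5 were tested and miR-208b-3p had no read. In S24h against S6h 3 of the 5 fell, miR-1a-3p, miR-133a-3p and miR-499-5p, with log2 fold changes of -2.80, -1.97 and -4.19 (edgeR adjusted p of 0.00305, 0.0169 and 0.0112), where 13.9% of all tested miRNAs were called lower, and the median of the list was -1.97 against -0.23 over all tested miRNAs. None of the 5 was called against Control in any group, with list medians of 1.67 in S6h, -0.78 in S24h and 0.36 in S72h, beside -0.02, -0.21 and -0.06 over all tested miRNAs.

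Over the 24 libraries, detection of miR-378a-5p followed the level of these muscle miRNAs. The 11 libraries with miR-378a-5p had a summed muscle level of 41333 to 265491 CPM (median 104632) and the 13 without it 6442 to 50749 CPM (median 33517). Only 3 of the 13 lay above the lowest of the 11, and 1 of the 11 lay below the highest of the 13. The only S72h library with miR-378a-5p, replicate 1, was the one with the high muscle level. Spearman's rho between the summed muscle level and the CPM of miR-378a-5p was 0.82 over the 24 libraries, which include the group differences. Within groups it was not computed. In S6h, where all libraries had miR-378a-5p, replicate 4 had the most muscle miRNAs (265491 CPM) and 38.2 CPM of miR-378a-5p. The most miR-378a-5p in S6h, 189 CPM, was in replicate 3, at 104632 CPM of muscle miRNAs. The libraries with miR-378a-5p also tended to be deeper, with totals of 95429 to 471801 (median 148158) against 63956 to 263211 (median 76686), and rho with the total was 0.51. For the other lists, rho with miR-378a-5p was 0.44 for 15 miRNAs of brown fat and energy metabolism, 0.40 for 6 of red cells, -0.13 for 4 of liver and -0.36 for 6 of platelets and leukocytes. The part of muscle RNA and of depth in the absence of miR-378a-5p was not tested.

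For miR-378a-3p the relation depended on the muscle miRNA. Over the 24 libraries Pearson's r of its log2 CPM with the summed muscle level was -0.03 (0.40 after the group means were removed). Among single members r was 0.32 for miR-133a-3p (0.69 within groups), 0.43 for miR-133b-3p (0.55), 0.00 for miR-1a-3p (0.40), -0.16 for miR-499-5p (0.10) and -0.32 for miR-206-3p (-0.17). The library with the most miR-378a-3p, replicate 3 of S24h, had 32942 CPM of muscle miRNAs, less than every Control library, while the second, replicate 1 of S72h, had 237383 CPM. The S6h group, with the highest median muscle level, had a median of miR-378a-3p near that of Control.

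**Figure D5:**
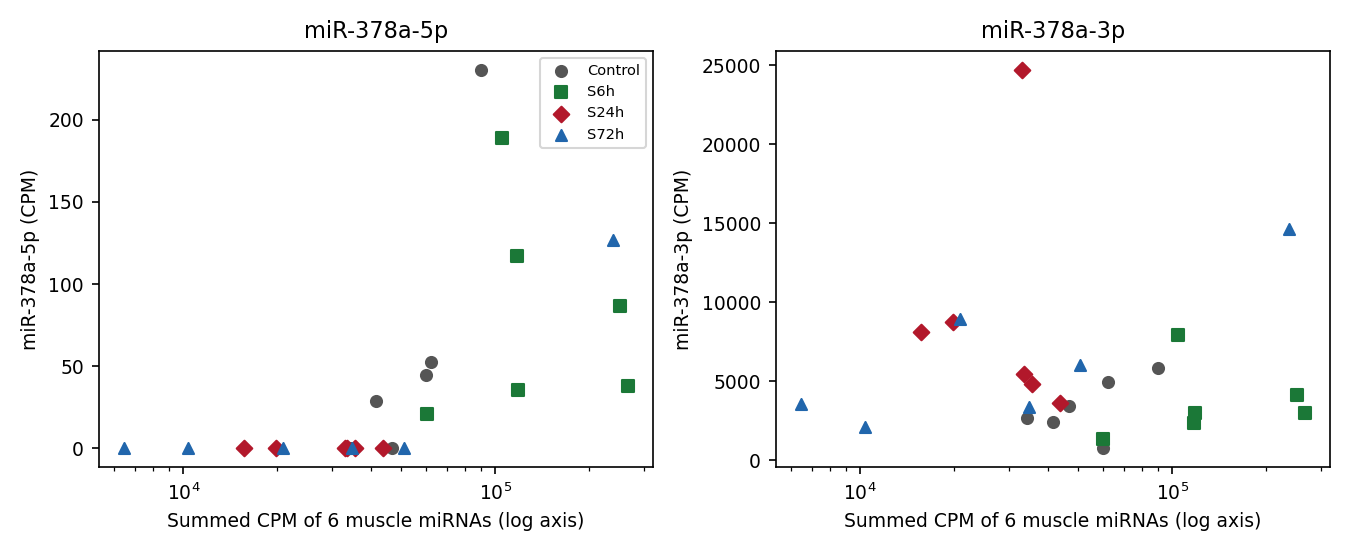
CPM of miR-378a-5p (left, y axis) and of miR-378a-3p (right, y axis) against the summed CPM of 6 muscle miRNAs (x axis, log scale) in the 24 libraries, coloured by group. miR-378a-5p had reads in 11 libraries, of which 10 lie above 50749 CPM of muscle miRNAs, while the highest miR-378a-3p value, in S24h, lies at 32942 CPM.

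For the other lists of source miRNAs, Pearson's r with miR-378a-3p over the 24 libraries was -0.48 for the liver list (-0.56 after the group means were removed), -0.41 for the red cell list (-0.09), -0.33 for the brown fat and energy metabolism list (0.04) and -0.04 for the platelet and leukocyte list (-0.18), for which Spearman's rho was 0.13. In S24h against Control, 4 of the 6 red cell miRNAs fell, where 7.94% of all tested miRNAs were called lower, namely miR-451a, miR-486a-5p, miR-486b-5p and miR-16-5p, with log2 fold changes of -1.42, -1.26, -1.22 and -1.20 and edgeR adjusted p of 0.0235, 0.0215, 0.0314 and 0.00696. Their list median was -1.24. The red cell list summed to a median of 144770 CPM in Control, 126714 CPM in S6h, 67657 CPM in S24h and 68406 CPM in S72h. CPM are shares of a library, and the part of the lower red cell level in the higher miR-378a-3p and miR-378c values of S24h was not tested.

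Among 9 tested miRNAs of the brown fat and energy metabolism list, in which miR-378a also has a known role, 3 fell in S24h against Control (miR-27b-3p, miR-106b-5p and miR-93-5p), beside 7.94% of all tested miRNAs, and 5 fell in S24h against S6h (the same 3, miR-27a-3p and miR-30b-5p), beside 13.9%. None of the 9 was called higher in any of the 5 comparisons, and in S72h against S24h 8 of the 9 had positive values, with a list median of 0.55 beside 0.09 over all tested miRNAs. The list median was -0.74 in S24h against Control, where miR-378a-3p stood at 1.33 and the median of all tested miRNAs at -0.21. In that comparison 3 of the 9 had positive values, miR-365-3p (0.36), miR-455-3p (0.67) and miR-155-5p (0.37). The list was not divided by the direction in which its miRNAs act, so its median does not describe brown fat as a source. None of the 3 tested liver miRNAs was called in any of the 5 comparisons. In S24h against Control they stood at -1.98 (miR-122-5p), -1.71 (miR-192-5p) and -1.80 (miR-194-5p) on the log2 scale, with edgeR adjusted p of 0.176, 0.0624 and 0.0989. In the platelet and leukocyte list none of the 6 was called against Control, and in S24h against S6h miR-150-5p rose (log2 fold change 1.39, edgeR adjusted p = 0.0121), beside 6.35% of all tested miRNAs called higher, and miR-223-3p fell (log2 fold change -1.06, edgeR adjusted p = 0.0226).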

How the data were processed

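The deposited table holds read counts per mature miRNA for 24 libraries of Control, S6h, S24h and S72h mice (6 each), whose groups came from the sample titles. The authors removed adapters (cutadapt 2.4), mapped the reads to GRCm38 (Bowtie 1.2.2), kept reads of 20 to 24 bases with SAMtools 1.10 and counted them with featureCounts on miRBase 22. The counts were not normalized. The family was selected by name. Members and lists were chosen with earlier results of these data known.

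CPM were computed from library totals. miRNAs with at least 10 CPM in at least 12 of 24 libraries were tested in 1 quasi-likelihood model over all 4 groups (edgeR 4.0.16, TMM, R 4.3.3), after the code had been tested on simulated data, and called where the p adjusted by Benjamini-Hochberg was under 0.05 and the fold was 1.5 or more. DESeq2 1.42.0 was an alternative. miR-378a-5p, below the filter, and the ratios within a library were tested by exact two-sided permutation with Benjamini-Hochberg adjustment over 5 comparisons. The permutation was coded in NumPy 2.4.6 and checked against SciPy 1.17.1 on random numbers. Named outside the family were the list members and the 5 miRNAs most correlated with miR-378a-3p or miR-378c on log2 CPM with a prior count of 4. The p-values measure the spread between mice. Replicate numbers were not treated as pairs. Scaling, filters, samples, pseudocounts and single libraries were varied as alternatives. Correlations over libraries are descriptions. Sequences came from RefSeq (GRCm38.p6), and hairpin positions from a Gencode annotation of the same build.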

Additional observations from a re-analysis of the deposited data

Results flagged for a closer look

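Within a group of 6 libraries, a library was marked when its gap to the nearest other library, as a share of the group's whole range, was above Dixon's 95% critical value. This was so in 5 of the 19 groups of values examined. About 0.95 would be marked by chance if the values were normal and independent. The groups reuse the same libraries and reads, so the 5 cannot be read as an excess. In S24h, replicate 3 stood apart as the highest for miR-378a-3p (share of the range 0.757) and for miR-378c (0.651), which are correlated measures. In Control, replicate 5 was the highest for miR-378a-5p (0.773). In S72h, replicate 1 was the only library with miR-378a-5p (1). In S6h, replicate 5, which had 2 reads of miR-378c, was the lowest for the log2 ratio of miR-378c to miR-378a-3p (0.642).

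Differences between time points were also marked. The log2(CPM + 4) of miR-378a-5p was lower in S24h than in S6h by a difference of -4.06 (exact two-sided permutation p = 0.00216, adjusted 0.0108, lower in 6 of 6 libraries). The log2 ratio of miR-378a-5p to miR-378a-3p was lower by a difference of -4.77 (exact two-sided permutation p = 0.00216, adjusted 0.0108, lower in 6 of 6 libraries). These tests compare S24h with S6h directly and use no Control library. With no read of miR-378a-5p in S24h, the size of both differences depends on the number added.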

How the results depend on the processing

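In S24h against Control the log2 fold change of miR-378a-3p passed the threshold with DESeq2 (1.58), DESeq2's size factors in edgeR (1.58), library totals (1.47), without miR-1a-3p and miR-122-5p (1.57), with no filter (1.35), a mean of at least 100 CPM (1.52) and only the 2 groups compared (1.33). miR-378c passed with DESeq2 (2.15), its size factors (2.14), library totals (2.07), without miR-1a-3p and miR-122-5p (2.17) and a mean of at least 100 CPM (2.12). In S24h against S6h miR-378a-3p passed with DESeq2 (1.43), its size factors (1.43), no filter (1.22), a mean of at least 100 CPM (1.37) and only the 2 groups compared (1.14), and miR-378c with DESeq2 (1.81). The cause was not tested. The median of all tested miRNAs in S24h against Control was -0.21 with TMM, -0.06 with DESeq2's size factors and -0.03 with library totals, and the members' direction was the same in each. Neither member passed in the other comparisons under any of the 10 settings.

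With 1 library left out, the range of the log2 fold change of miR-378a-3p was 0.84 to 1.77 in S24h against Control, 0.62 to 1.72 in S24h against S6h, -0.12 to 0.38 in S6h against Control and -0.86 to 0.38 in S72h against S24h. For miR-378c it was 1.41 to 2.41, 0.97 to 2.01 and, in S72h against S24h, -1.07 to 0.0074. For miR-378a-5p in S24h against Control the range was -3.26 to -2.09, with 2 of 12 tests passing. For the log2 ratio of miR-378a-5p to miR-378a-3p it was -4.36 to -3.06 in S24h against Control and -3.12 to -1.82 in S72h against Control, and for the ratio of miR-378c to miR-378a-3p in S6h against Control -0.16 to 0.54.

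The number of miRNAs called was 30 in S24h against Control, 50 with DESeq2, 11 when the fold was tested against 1.5, and 20 (without Control replicate 5) to 50 (without S24h replicate 2) with 1 library left out. In S72h against Control it was 9, and 21 with DESeq2, 2 with library totals, 23 without miR-1a-3p and miR-122-5p, 18 with a mean of at least 100 CPM, 0 with only the 2 groups compared, 1 when the fold was tested, and 1 (without Control replicate 5) to 16 with 1 library left out. In S24h against S6h it was 51, 23 when the fold was tested and 32 (without S24h replicate 3) to 51 with 1 left out. In S72h against S24h it was 1, 4 with DESeq2, 10 with no filter, 0 with only the 2 groups compared and 1 to 3 with 1 left out. In S6h against Control it was 0, and 2 with no filter.

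Same-numbered libraries did not deviate together in the median (36 pairs, r from -0.32 to 0.26, median -0.00), and the numbers were not treated as pairs. In 9 of the 36 r was above 0.1. The check pools all pairs of groups, so it cannot exclude pairs between particular groups. With the replicate number as a block 1 miRNA was called in S72h against Control, miR-378a-3p stood at 0.013 in S72h against S24h in place of -0.21, and the calls of the ratio of the arms in S24h against Control (-3.62) and S6h (-4.77) were lost, with adjusted p of 0.195 and 0.156, where 0.156 is the smallest that 6 pairs allow after adjustment over 5 comparisons. The block was not run on miR-378a-5p. It changed no call of miR-378a-3p, of miR-378c or of their ratio, and 32 miRNAs were called in S24h against Control and 43 in S24h against S6h.

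The S24h libraries were shallow, and miR-378a-5p and the low values of miR-378c rest on few reads. With 6 mice a group and a biological coefficient of variation of 59.5% for miR-378a-3p, the edgeR interval of its log2 fold change in S24h against Control ran from 0.33 to 2.33.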
